A study of Mus musculus with 6 samples.

Results

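The insulin-like growth factor axis was followed in ectopic endometriotic lesions of the mouse through 10 genes. They comprise the ligands Igf1 and Igf2, the receptors Igf1r and Igf2r, and the binding proteins Igfbp2, Igfbp3, Igfbp4, Igfbp5, Igfbp6 and Igfbp7. These were chosen by gene symbol as ligands, receptors and main binding proteins, without use of their values, and they are 10 of the 56884 genes counted. Igf2 and Igf1r lie on mouse chromosome 7, Igfbp2 and Igfbp5 on chromosome 1, Igfbp3 and Igfbp4 on chromosome 11, and Igf1, Igf2r, Igfbp6 and Igfbp7 on chromosomes 10, 17, 15 and 5. All 10 passed the filter on low counts that left 18177 genes for testing.

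IGF1 and IGF2 are small secreted proteins that drive growth and survival of cells through the receptor tyrosine kinase IGF1R, which signals to the PI3K and AKT kinases. IGF2R has no kinase and carries IGF2 to lysosomes, while the binding proteins hold the ligands outside the cell and release them when proteases cut them. In the uterus, estrogen raises Igf1 in the stroma, and the ligand acts on the neighbouring epithelium. Igf2 is imprinted and is transcribed from the paternal allele beside the noncoding RNA H19, whereas mouse Igf2r is transcribed mainly from the maternal allele.

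The lesions grew from uterine tissue of female donors, and 6 lesions were sequenced, each as 1 library of messenger RNA. The 3 control donors (WT) carried floxed Dnmt3a alleles (Dnmt3a f/f), and the 3 knockout donors (KO) carried the same alleles with Cre recombinase under the progesterone receptor gene (Dnmt3a f/f:PR-Cre/+). Donors were 8 weeks old and received estradiol before tissue was taken. Recipients in both groups were 8-week-old wild-type C57BL/6J females with estradiol pellets. Lesions were collected on day 21 according to the methods of the study, while the sample labels give 4 weeks. In those methods a fragment was sewn to the mesentery, whereas the labels describe injection of fragments into the peritoneal cavity. Cre acts only in cells that express the progesterone receptor, and host cells that enter a lesion keep intact Dnmt3a in both groups. A whole lesion is a mixture, so fewer cells of a type and less RNA per cell cannot be told apart in these values.

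Libraries held 45370342 to 57239184 counts. Dnmt3a, the de novo DNA methyltransferase removed in the KO donors, had 43.9 to 52.7 CPM (counts scaled to library size with the trimmed mean of M-values, TMM) in WT and 30.3 to 36.2 CPM in KO lesions, so its direction fitted the labels (log2 fold change -0.57, SE 0.14, edgeR adjusted p = 0.321). The WT lesions did not hold like tissue. The summed level of 10 skeletal muscle markers was 30081 and 32316 CPM in WT replicates 1 and 3, against 4.73 CPM in WT replicate 2 and 7.47 to 14.7 CPM in the KO lesions. Of 7 such markers that could be tested, all 7 were lower in KO lesions at an unadjusted edgeR p under 0.05, and the fast myosin gene Myh4 was at 0 counts in every KO lesion and at 1 count in WT replicate 2. WT replicate 3 alone also held 5212 CPM of 6 pancreatic acinar markers, whose sum was 7.23 to 16.2 CPM elsewhere. Neutrophil markers summed to 9862 CPM in WT replicate 2 and to 479 and 214 CPM in the other WT lesions. In KO lesions they summed to 36.1 to 184 CPM. Of the 7 tested, 4 were lower in KO at an unadjusted edgeR p under 0.05. Smooth muscle markers summed to 1119 to 4957 CPM in WT and 2303 to 4041 CPM in KO lesions, which overlapped. Of the 8 tested, 7 had a log2 fold change above 0 and 1 below. At an unadjusted edgeR p under 0.05, 5 were higher, against 6.55% of all genes, and 0 lower. Summed markers of the endometrium itself were present in all 6 lesions. Stroma and fibroblast markers stood at 4285 to 12564 CPM and epithelial markers at 11522 to 37015 CPM. The gene Ltf made up most of the epithelial sum, with 9882 to 19058 CPM in WT and 15673 to 33570 CPM in KO lesions. Foxa2 of the same list had 0 counts in KO replicate 3. Because the WT lesions did not hold like tissue, values for each member are given lesion by lesion in the order of replicates 1, 2 and 3. Differences are also given against WT replicate 2 as the only control. In that fit the spread came from the 3 KO lesions alone, and the single WT lesion was assumed to vary like them, so its differences are given as values.

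Promoter sequences of the 3 members with the smallest edgeR p-values are shown because the enzyme deleted in the donors methylates cytosines in CG dinucleotides. DNA methylation was not measured in these libraries. The windows are the 250 bases before an annotated start in RefSeq on GRCm38.p6, written 5′ to 3′ on the strand of the gene, with CG in capitals. Igf2 has 4 annotated starts, and those with the fewest CG and with the most GC boxes (GGGCGG on either strand) are shown as starts 1 and 4, at chr7:142666817-142667066 and chr7:142657497-142657746 on the minus strand. Igf2r is shown at chr17:12769707-12769956 and Igfbp3 at chr11:7213924-7214173, both also on the minus strand.
Igf2 start 1: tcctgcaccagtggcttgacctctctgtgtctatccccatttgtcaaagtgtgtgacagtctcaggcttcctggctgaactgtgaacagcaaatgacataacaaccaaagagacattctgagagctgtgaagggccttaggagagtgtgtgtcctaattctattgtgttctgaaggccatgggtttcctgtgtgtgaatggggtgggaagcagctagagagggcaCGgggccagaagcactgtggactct
Igf2 start 4: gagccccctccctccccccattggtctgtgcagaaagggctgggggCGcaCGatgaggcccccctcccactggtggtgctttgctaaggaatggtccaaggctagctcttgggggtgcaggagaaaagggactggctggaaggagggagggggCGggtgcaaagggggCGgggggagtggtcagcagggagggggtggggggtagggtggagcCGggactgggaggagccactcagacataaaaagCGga
Igf2r: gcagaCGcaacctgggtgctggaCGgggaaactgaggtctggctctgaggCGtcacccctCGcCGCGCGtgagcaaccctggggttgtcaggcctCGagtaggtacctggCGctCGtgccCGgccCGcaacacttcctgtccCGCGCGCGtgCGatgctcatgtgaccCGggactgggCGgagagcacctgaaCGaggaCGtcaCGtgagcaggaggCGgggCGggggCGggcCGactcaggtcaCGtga
Igfbp3: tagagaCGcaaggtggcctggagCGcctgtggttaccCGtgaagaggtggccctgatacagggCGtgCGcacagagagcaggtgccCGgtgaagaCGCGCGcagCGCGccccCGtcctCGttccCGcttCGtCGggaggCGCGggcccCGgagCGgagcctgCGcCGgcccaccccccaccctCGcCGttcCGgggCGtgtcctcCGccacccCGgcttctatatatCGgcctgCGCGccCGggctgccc

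The windows of Igf2 differed among themselves. The one shown for start 1 held 1 CG, a number reached by 92.1% of the 32851 windows of that length in the mouse annotation, and the one for start 4 held 6 CG, which is also the median over all windows. The remaining starts of Igf2 had 10 and 22 CG. Igf2r and Igfbp3 had 27 and 32 CG, a density reached by 8.6% and 4.6% of all windows. GC boxes numbered 2 in the Igf2 window of start 4, 3 in that of Igf2r and 0 in that of Igfbp3, and 32.7% of all windows held at least 1. Among the other members, Igf1r was richest with 42 CG and Igf1 poorest with 5 CG. The window of Igf1 and those of the remaining Igf2 starts overlap annotated exons of their own gene. Igf1r and Igf1 had log2 fold changes near 0, and a relation between CG number and fold change was not tested.

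Igf1, the main ligand of the estrogen-primed uterus, was the least variable member among the WT lesions. It stood at 198, 196 and 207 CPM in the WT lesions and at 162, 202 and 235 CPM in the KO lesions. KO replicate 1 lay below and KO replicate 3 above the WT lesions, KO replicate 2 lay among them, and the groups overlapped. Means were 200.3 ± 6.0 CPM in WT and 199.7 ± 36.3 CPM in KO lesions (SD, n = 3 each). The log2 fold change (KO over WT) was -0.00 with a 95% interval from -0.42 to 0.41 (edgeR quasi-likelihood test with Benjamini-Hochberg adjustment, adjusted p = 0.991). Its sign followed the scaling and the lesions entered, from -0.14 without KO replicate 3 to 0.13 without KO replicate 1, and 0.09 under upper quartile scaling. WT replicate 2 did not stand apart in Igf1, and against it alone the value was 0.01.

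Igf2 (ENSMUSG00000048583.17), the ligand best known from fetal growth, was the member with the widest spread relative to its level. Its level was 5.72, 0.315 and 4.25 CPM in the WT lesions. The KO lesions had 0.0351, 0.0596 and 0.250 CPM. All WT lesions therefore lay above all KO lesions, yet WT replicate 2 was closer to the KO lesions than to the other WT lesions. Counts were 268, 14 and 199 in WT and 2, 3 and 12 in KO lesions, which is a low depth. Low counts of all genes were mostly even, as when both reads of a pair are counted, although 199 and 3 here are odd. If a pair gave 2 counts, about 134, 7 and 100 pairs stood behind the WT and 1, 2 and 6 behind the KO values. On that assumption, which was not tested and on which the counting intervals of Igf2 rest, the exact Poisson intervals of WT replicate 2 (0.127 to 0.649 CPM) and KO replicate 3 (0.0918 to 0.544 CPM) overlapped. Such intervals cover counting error only. In the GENCODE M21 annotation, Igf2 overlaps the protein-coding gene model Gm49394 on its own strand, so reads of the 2 models can be split or lost in counting.

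Means of Igf2 were 3.43 ± 2.80 CPM in WT and 0.115 ± 0.118 CPM in KO lesions (SD, n = 3 each). On the log2 scale the difference was -4.89 (SE 1.29, 95% interval -8.04 to -1.74), with an edgeR p of 0.00892 before and 0.321 after Benjamini-Hochberg adjustment over 18177 genes. An exact two-sided permutation test over lesions gave p = 0.1, the smallest that 3 against 3 allow. WT replicates 1 and 3 together exceeded the KO lesions by a ratio of 43.1 (counting interval 22.3 to 95.5) and exceeded WT replicate 2 by 15.9 (7.57 to 39.9). In contrast, WT replicate 2 exceeded all KO lesions by 2.72 (0.861 to 8.21) and KO replicate 3 by 1.26 (0.363 to 4.54). Both of these intervals include 1. The read pairs of grouped lesions were summed for such ratios. Their intervals thus leave out the spread between lesions, and the groupings were chosen with the values known. With WT replicate 2 as the only control, the log2 fold change was -1.46. DESeq2 placed Igf2 past an adjusted p of 0.05 (log2 fold change -4.91, adjusted p = 0.000580), where it put 3.80% of all genes lower. Without WT replicate 2, the edgeR value was -5.43 with an adjusted p of 0.0526.

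H19, the noncoding RNA expressed from the maternal allele next to Igf2, showed the same order of lesions with a wider gap. It had 3094, 11.9 and 2723 CPM in the WT lesions and 3.05, 3.50 and 9.48 CPM in the KO lesions. As for Igf2, the control with little skeletal muscle transcript lay just above the KO lesions. The log2 fold change of -8.51 (SE 2.05, edgeR adjusted p = 0.321) was -1.16 against WT replicate 2 alone. Without WT replicate 2 it was -9.09 (edgeR adjusted p = 0.00671), and DESeq2 gave an adjusted p of 5.81e-09. The part of skeletal muscle in the levels of Igf2, H19 and Igfbp3 was not tested. It cannot be told apart from other differences between WT replicates 1 and 3 and the remaining lesions.

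**Figure D1:**
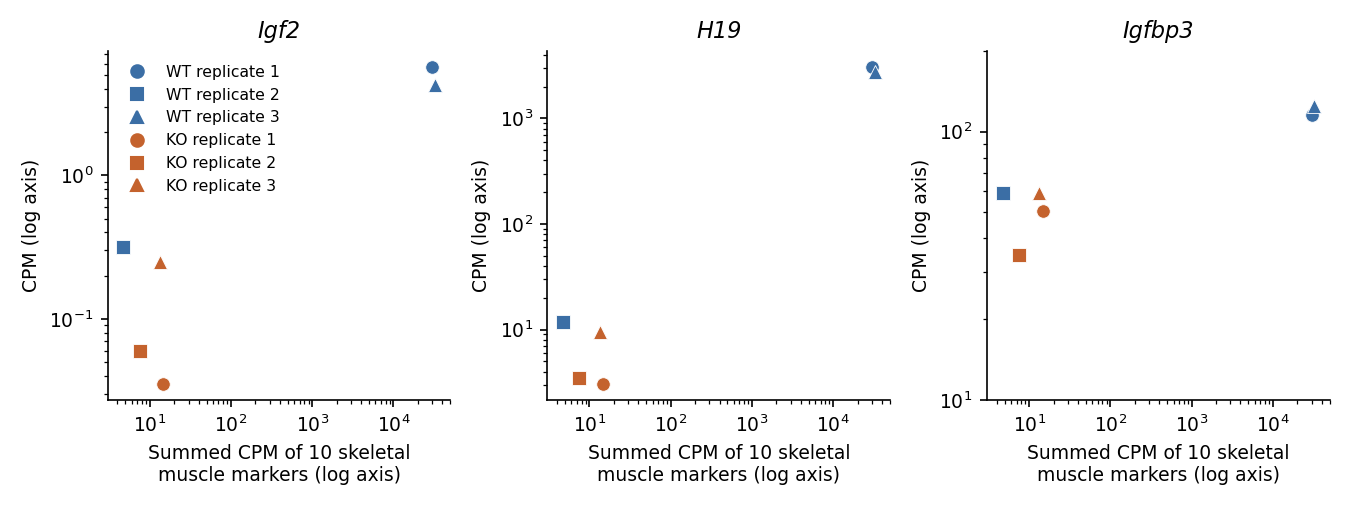
Level of Igf2, H19 and Igfbp3 (CPM, log axis) against the summed CPM of 10 skeletal muscle markers (log axis) in each of the 6 lesions, with color for the group and marker shape for the replicate. WT replicates 1 and 3 sit at the right (30081 and 32316 CPM of muscle markers) and hold the 2 highest levels of all 3 genes, while WT replicate 2 sits at the left with the KO lesions.

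The 5 genes whose log2 CPM followed Igf2 most closely over the 6 lesions, among 15045 genes with a mean of at least 1 CPM, were Gm5532 (Pearson r 0.999), Idh3g (0.997), Ppp3ca (0.996), Dusp22 (0.995) and Pcgf5 (0.994). Idh3g encodes a subunit of mitochondrial isocitrate dehydrogenase, and Ppp3ca the catalytic subunit of calcineurin. Ppp3ca had 139.9, 100.4 and 137 CPM in the WT lesions, and 88.5, 87.0 and 98.8 CPM in the KO lesions. WT replicates 1 and 3 again held the highest levels, and WT replicate 2 lay near KO replicate 3. These r values describe 6 points in which a pair of lesions stands apart, and they carry no test.

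Igf1 made up most of the ligand transcript in every lesion. Per kilobase of exon, which allows levels of different genes to be compared, Igf1 was 95.2%, 99.7% and 96.6% of the sum of Igf1 and Igf2 in the WT lesions. Its share was 99.8% or more in each KO lesion, and that of KO replicate 3 lay just above that of WT replicate 2.

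Igf1r, the signalling receptor of both ligands, stood at 109, 94.3 and 77.5 CPM in the WT lesions. The KO lesions had 85.0, 105 and 69.8 CPM. The groups overlapped widely, with means of 93.6 ± 15.8 CPM and 86.5 ± 17.4 CPM (SD, n = 3 each). Fitted in edgeR, the log2 fold change was -0.11, with a 95% interval from -0.61 to 0.38 (edgeR adjusted p = 0.799). The value was 0.01 without WT replicate 1, 0.02 without KO replicate 3 and -0.15 against WT replicate 2 alone.

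Igf2r (ENSMUSG00000023830.15), the clearance receptor of IGF2, was the other member whose groups did not overlap. It was measured at 175, 159.8 and 131 CPM in the WT lesions and at 106, 93.2 and 127 CPM in the KO lesions. The gap between the groups was narrow, since WT replicate 3 and KO replicate 3 were next to each other. Means were 155 ± 22.1 CPM in WT and 109 ± 17.0 CPM in KO lesions (SD, n = 3 each, exact permutation p = 0.1). Its log2 fold change was -0.51 (SE 0.18, 95% interval -0.95 to -0.08), with an edgeR p of 0.0272 before and 0.328 after adjustment. Unlike that of Igf2, it was about as large against WT replicate 2 alone (-0.57). With 1 lesion left out at a time it ranged from -0.64 to -0.41. The unadjusted edgeR p then exceeded 0.05 without WT replicate 1 (0.0912), WT replicate 2 (0.0560), KO replicate 1 (0.0869) or KO replicate 2 (0.0929). With all lesions, this edgeR p also exceeded 0.05 under upper quartile scaling (0.0536) and with replicate number as a block (0.0792).

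Per kilobase, Igf1r had 0.346, 0.327 and 0.327 of the level of Igf2r in the WT lesions. The ratio was 0.445, 0.622 and 0.305 in the KO lesions. KO replicates 1 and 2 lay above the WT lesions and KO replicate 3 below them, so the groups overlapped.

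**Figure D2:**
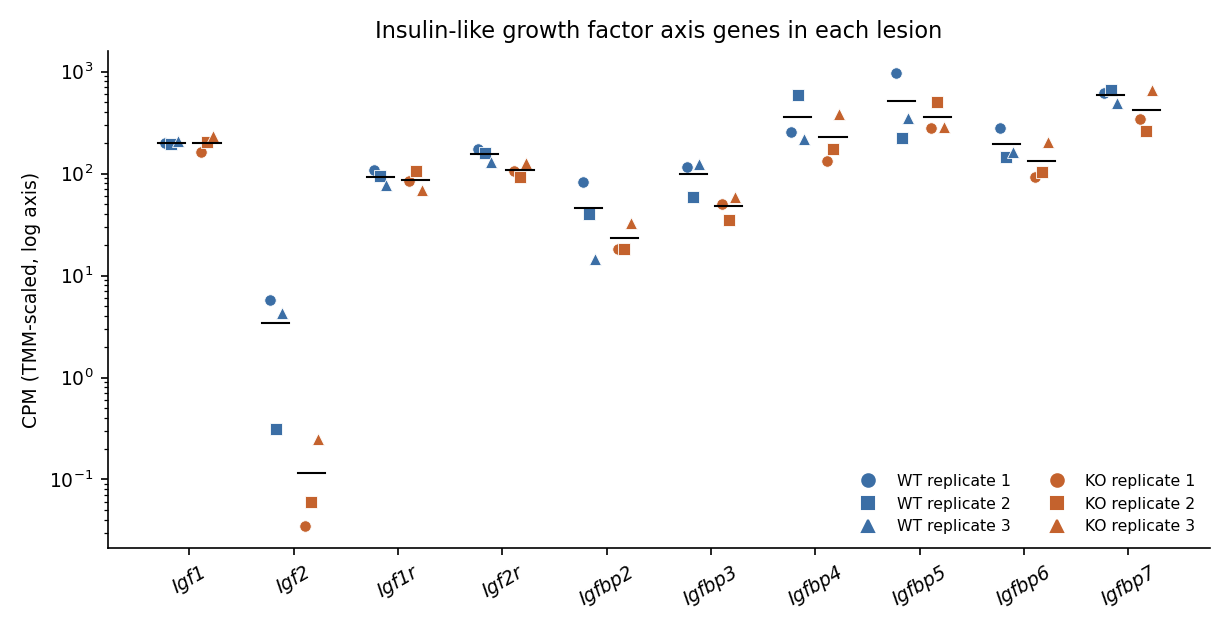
CPM (log axis) of the 10 genes of the insulin-like growth factor axis in each lesion, with WT lesions left and KO lesions right of each gene and black bars for the group means. Igf1 and Igf1r have group means close together, Igf2 spans from 0.0351 to 5.72 CPM, and WT and KO points separate only for Igf2 and Igf2r.

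Igfbp3 (ENSMUSG00000020427.12), the main carrier of the ligands in blood, was the binding protein with the smallest edgeR p-value. It had 115, 59.1 and 124 CPM in the WT lesions and 50.7, 34.7 and 59.2 CPM in the KO lesions. WT replicate 2 and KO replicate 3 were nearly equal, which makes the groups overlap, and the lesions with skeletal muscle transcripts held the highest levels. Means were 99.2 ± 35.0 CPM and 48.2 ± 12.4 CPM (SD, n = 3 each, exact permutation p = 0.200). On the log2 scale the difference was -1.04 (SE 0.34, 95% interval -1.87 to -0.22), with an edgeR p of 0.0215 before and 0.328 after adjustment. Against WT replicate 2 alone it was -0.31, and without that lesion it was -1.30 (edgeR adjusted p = 0.0891). The unadjusted edgeR p exceeded 0.05 without WT replicate 1 (0.0652), WT replicate 3 (0.0674), KO replicate 1 (0.0560) or KO replicate 2 (0.0665). Over the 6 lesions the log2 CPM of Igfbp3 and Igf2 had a Pearson r of 0.95, a description of points that share the lesions rich in muscle transcripts.

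Igfbp2, which carries ligands in tissue and blood, differed more among WT lesions than between the groups. Its level was 82.6, 39.7 and 14.6 CPM in the WT lesions and 18.4, 18.4 and 32.7 CPM in the KO lesions. WT replicate 3 was the lowest of all 6 lesions and WT replicate 1 the highest, and the means were 45.6 ± 34.4 CPM and 23.2 ± 8.24 CPM (SD, n = 3 each). The log2 fold change of -0.98 had a 95% interval from -2.50 to 0.55 (edgeR adjusted p = 0.460). It was -0.23 without WT replicate 1, -1.42 without WT replicate 3 and -0.79 against WT replicate 2 alone.

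Igfbp4, a binding protein that releases its ligand when cut by the protease PAPP-A, was highest in WT replicate 2. The values were 257, 593 and 219 CPM in the WT lesions and 133, 175 and 382 CPM in the KO lesions. KO replicate 3 exceeded the remaining WT lesions, and the groups overlapped, with means of 356 ± 206 CPM and 229.8 ± 133 CPM (SD, n = 3 each). Fitted in edgeR, the log2 fold change was -0.63 (95% interval -1.98 to 0.71, edgeR adjusted p = 0.583), -0.05 without WT replicate 2, -0.35 without KO replicate 1 and -1.21 without KO replicate 3. Against WT replicate 2 alone it was -1.38. The 8 adipocyte markers summed to 4514 CPM in WT replicate 2 and 6478 CPM in KO replicate 3, against 899 to 1746 CPM in the other lesions, and their part in the level of Igfbp4 was not tested.

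Igfbp5, a binding protein held in the extracellular matrix, had 961, 221 and 353 CPM in the WT lesions. The KO lesions stood at 278, 501 and 285 CPM. WT replicate 1 was the highest and WT replicate 2 the lowest of the 6 lesions, with group means of 512 ± 394 CPM and 355 ± 127 CPM (SD, n = 3 each). Its log2 fold change of -0.53 (95% interval -1.96 to 0.90, edgeR adjusted p = 0.667) turned to 0.30 without WT replicate 1. It was 0.66 against WT replicate 2 alone, -0.89 without that lesion and -0.86 without KO replicate 2.

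Igfbp6, which binds IGF2 in preference to IGF1, was measured at 283, 146 and 161 CPM in the WT lesions. In KO replicates 1, 2 and 3 it had 92.9, 104 and 205 CPM. KO replicate 3 lay between the WT lesions, and the other KO lesions lay below all of them, with group means of 197 ± 75.1 CPM and 134 ± 61.5 CPM (SD, n = 3 each). On the log2 scale the difference was -0.55 (95% interval -1.54 to 0.43, edgeR adjusted p = 0.514). It was -0.20 without WT replicate 1, -0.34 without KO replicate 1 and -1.0 without KO replicate 3. Against WT replicate 2 alone it was -0.14.

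Igfbp7, a secreted protein of vessel walls with low affinity for the ligands, was 622, 656 and 497 CPM in the WT lesions and 342, 259.6 and 657 CPM in the KO lesions. KO replicates 1 and 2 lay below every WT lesion, and KO replicate 3 was level with WT replicate 2. Means were 592 ± 83.6 CPM and 419 ± 209.6 CPM (SD, n = 3 each). The log2 fold change was -0.50 (95% interval -1.40 to 0.41, edgeR adjusted p = 0.523). It reached -0.98 when KO replicate 3 was left out, and was -0.24 without KO replicate 2 and -0.66 against WT replicate 2 alone. Igfbp7 and Igf2r overlap transcripts of the opposite strand (Polr2b and Airn among them), and the strand setting of the counting is not given in the sources used here.

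The summed CPM of 8 endothelial markers had the same order of lesions as Igfbp7, with 544 to 663 CPM in WT and 248 to 698 CPM in KO lesions. Of these 8 markers, 7 had a log2 fold change below 0 and 1 above, 0 of them had an unadjusted edgeR p under 0.05, and no marker was at 0 in every lesion. Divided by that sum, Igfbp7 was 1.02, 0.989 and 0.914 in the WT lesions and 0.985, 1.05 and 0.941 in the KO lesions. The ratio thus varied little over all 6 lesions, with means of 0.976 ± 0.0560 and 0.991 ± 0.0533 (SD, n = 3 each), a comparison chosen after the values were seen. The same ratio for Igf2r was 0.288, 0.241 and 0.241 in WT and 0.306, 0.376 and 0.182 in KO lesions, which overlapped. Stroma and fibroblast markers also summed to less in KO replicates 1 and 2 (5605 and 4285 CPM) than in the other 4 lesions (10263 to 12564 CPM). Of these 10 markers, 6 had a log2 fold change below 0, with none at an unadjusted edgeR p under 0.05, and 4 above 0 (Hoxa10, Hoxa11, Pgr and Esr1), with 2 at an unadjusted edgeR p under 0.05. The collagen genes Col1a1 and Col3a1 and the matrix gene Dcn had the highest CPM among them. Divided by the stroma and fibroblast sum, Igfbp7 was 0.0585, 0.0529 and 0.0485 in WT and 0.0609, 0.0606 and 0.0523 in KO lesions, a ratio that also varied little. The part of these cell markers in the levels of Igfbp7 and Igf2r was not tested.

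**Figure D3:**
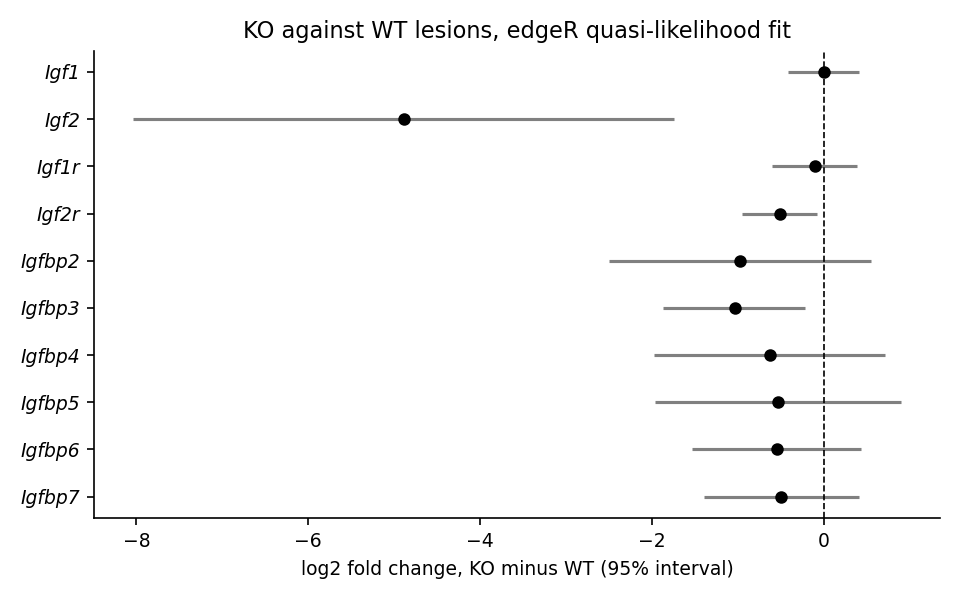
Log2 fold change of KO over WT lesions for the 10 genes (points) with 95% intervals (lines) from the edgeR quasi-likelihood fit on 3 lesions per group. Igf1 lies at -0.00 and Igf1r at -0.11, the other points lie further left, and the intervals of Igf2, Igf2r and Igfbp3 do not reach 0 before adjustment for the number of genes.

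The members were then counted by call rule. At an adjusted p under 0.05 in edgeR, 0 of 10 members were lower and 0 higher, where 0.00550% of all genes tested were called lower and 0% higher. DESeq2 called 1 member, Igf2, lower (3.80% of all genes) and 0 higher, and limma voom called 0. By the unadjusted edgeR p, 3 of 10 members were lower and 0 higher at the 0.05 level, against 8.16% and 6.55% of all genes. The 3 were Igf2, Igf2r and Igfbp3. Igf2 and Igfbp3 also had a log2 fold change below -1, so 2 of 10 members were lower and 0 higher by p and fold together, against 5.85% and 3.10% of all genes. The number called by the unadjusted p depended on single lesions, since it was 1 without WT replicate 1, KO replicate 1 or KO replicate 2, where 7.21%, 3.70% and 4.22% of all genes were lower. It was 5 without KO replicate 3, when Igfbp6 and Igfbp7 joined and 12.4% of all genes were lower. It was 3 without WT replicate 3, with Igfbp2 in place of Igfbp3 (7.61% of all genes), 2 without WT replicate 2 (9.64% of all genes) and 0 with that lesion as the only control, a fit without WT replicates whose spread came from KO lesions alone and in which 10.1% of all genes were lower by this rule. By limma voom it was 5, where 15.9% of all genes were lower.

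Groups were fully separated for 2 of 10 members with WT above KO, against 8.74% of all genes, and for 0 with KO above WT, against 10.7%. All 10 members had a log2 fold change below 0, against 48.6% of all genes, and their median was -0.54 where that of all genes was 0.01. For Igf1 this sign carries no information, as it turned to 0.09 under upper quartile scaling, which moved the median of all genes to 0.109. With WT replicate 2 as the only control, Igf1 and Igfbp5 stood above 0 (0.01 and 0.66). All members were measured in the same 6 lesions and are not independent of each other.

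Levels of different members were compared per kilobase of exon. In WT lesions, Igfbp7 led with 489 ± 69.2 CPM per kilobase, followed by Igfbp6 (177 ± 67.5), Igfbp5 (85.2 ± 65.7) and Igfbp4 (80.7 ± 46.5). Igfbp3 (31.7 ± 11.2), Igfbp2 (24.7 ± 18.6), Igf1 (20.2 ± 0.606) and Igf2r (16.7 ± 2.37) came next, and Igf1r (5.57 ± 0.938) and Igf2 (0.599 ± 0.488) were last (SD, n = 3 each). Igfbp7 exceeded Igfbp6 and Igfbp6 exceeded Igfbp5 in 6 of 6 lesions. In contrast, Igfbp5 exceeded Igfbp4 in 4 lesions, Igfbp3 exceeded Igf1 in 2, and Igfbp2 exceeded Igf2r in 3. These pairs had no fixed order, and they were taken from the ranking by the mean over all 6 lesions, where Igf1 stood above Igfbp2. Only the steps from Igf2r to Igf1r and from Igf1r to Igf2 had ranges over all lesions that did not overlap. In KO lesions Igfbp7 was again first with 347 ± 173 CPM per kilobase and Igf2 last with 0.0201 ± 0.0206.

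Summed over Igfbp2 to Igfbp7, binding-protein transcripts came to 1068, 886 and 712 CPM per kilobase in the WT lesions. The KO lesions held 469, 452 and 897. KO replicates 1 and 2 lay below all WT lesions, whereas KO replicate 3 lay above WT replicates 2 and 3. The sum was 53.4, 44.8 and 34.0 times the level of Igf1 in the WT lesions and 28.6, 22.2 and 37.8 times in the KO lesions, and the groups overlapped.

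The makeup of this pool was compared by the share of each protein. Igfbp7 was 55.7% ± 6.80 of it in WT and 56.1% ± 7.48 in KO lesions, and Igfbp6 was 19.7% ± 4.52 and 19.7% ± 1.59 (SD, n = 3 each). Igfbp5 held 9.14% ± 5.46 and 11.2% ± 6.68, and Igfbp4 9.19% ± 5.22 and 8.27% ± 1.67. Igfbp3 had 3.71% ± 1.73 and 2.67% ± 0.701, and Igfbp2 2.57% ± 1.54 and 2.10% ± 0.118. For each of the 6 proteins the shares overlapped between the groups.

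**Figure D4:**
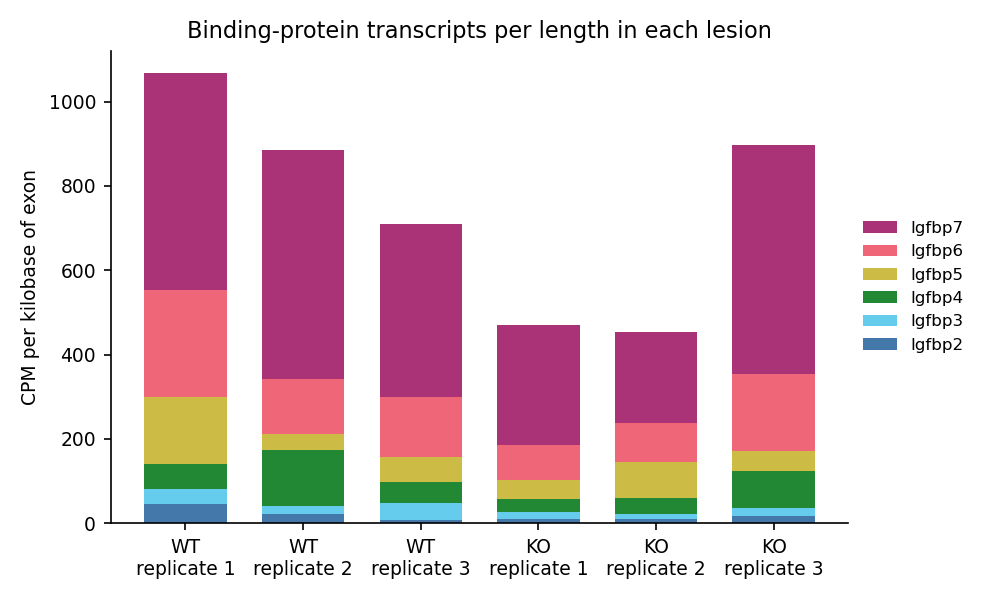
Stacked bars of the 6 binding-protein transcripts in each lesion, in CPM per kilobase of exon on a linear axis from 0. Igfbp7 is the largest block in all 6 lesions, and the bars of KO replicates 1 and 2 (469 and 452) are the shortest.

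A list of 51 other genes of the pathway held 45 that could be tested, of which 25 had a log2 fold change below 0 and 20 above, with a median of -0.05. Of these, 0 passed an adjusted p of 0.05 in edgeR in either direction, with adjusted p-values from 0.321 to 0.994. DESeq2 called H19 lower and Socs2 higher, where it called 3.80% of all genes lower and 1.51% higher. Unadjusted edgeR p-values under 0.05 were found for 3 genes with lower levels (H19, Adam28 and Akt2) and 2 with higher levels (Socs2 and Stat5a) in KO lesions. Over all genes these shares were 8.16% and 6.55%, and the list did not exceed them in either direction. With KO replicate 3 left out, 9 genes of the list were lower and 3 higher, against 12.4% and 11.5% of all genes. Without WT replicate 2, Foxo4, outside the rule for named genes and chosen after its values were seen, joined H19 at an edgeR adjusted p of 0.0226, where 2.09% of all genes were lower, and its log2 fold change was 0.14 against WT replicate 2 alone.

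Socs2, a feedback inhibitor of growth hormone signalling that is induced through STAT5, had the smallest edgeR p-value of the axis and its pathway, whereas H19 had the smallest by DESeq2. It stood at 48.0, 37.5 and 45.4 CPM in the WT lesions and at 71.9, 83.4 and 71.7 CPM in the KO lesions. Every KO lesion lay well above every WT lesion, and the KO lesions were close together. Means were 43.6 ± 5.45 CPM and 75.7 ± 6.68 CPM (SD, n = 3 each, exact permutation p = 0.1). Fitted in edgeR, the log2 fold change was 0.79 (SE 0.14, 95% interval 0.45 to 1.14), with an edgeR p of 0.00139 before and 0.321 after adjustment, and DESeq2 gave an adjusted p of 0.00338. It was 0.99 against WT replicate 2 alone, and lay between 0.70 and 0.87 with single lesions left out.

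Stat5a, a transcription factor downstream of growth hormone and prolactin receptors, had 95, 60.3 and 69.5 CPM in the WT lesions. The KO lesions had 172, 161 and 78.3 CPM. KO replicates 1 and 2 were above all WT lesions, while KO replicate 3 lay among them. Its log2 fold change was 0.87 (SE 0.34, unadjusted edgeR p of 0.0431, adjusted p = 0.333). The unadjusted edgeR p exceeded 0.05 without WT replicate 2 (0.112), WT replicate 3 (0.115), KO replicate 1 (0.131) or KO replicate 2 (0.118). Stat5b, the close paralog, was near 0 on the log2 scale (0.02).

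Downstream of the receptor, Akt2, a kinase of the insulin arm, was 164, 145 and 149 CPM in the WT lesions and 85.1, 92.4 and 132 CPM in the KO lesions. The groups did not overlap, and KO replicate 3 was closest to the WT lesions. On the log2 scale the difference was -0.56 (SE 0.20, edgeR adjusted p = 0.328). Its unadjusted edgeR p of 0.0277 went above 0.05 without WT replicate 1 (0.0833), WT replicate 3 (0.0633), KO replicate 1 (0.0952) or KO replicate 2 (0.0930). Akt1, its close relative, had a log2 fold change of -0.13.

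Insr, the insulin receptor, had a log2 fold change of -0.05 with a 95% interval from -0.55 to 0.45 (edgeR adjusted p = 0.915). The docking proteins Irs1 and Irs2 had 0.21 and -0.32 (edgeR adjusted p = 0.763 and 0.824). Irs2 was 18.2, 27.7 and 12.5 CPM in the WT lesions and 6.56, 8.82 and 31.3 CPM in the KO lesions. Its highest value was in KO replicate 3 and its lowest in KO replicate 1. Grb10, an imprinted adaptor that restrains both receptors, had 107, 117 and 106 CPM in the WT lesions and 65.5, 62.3 and 135 CPM in the KO lesions (log2 fold change -0.33, edgeR adjusted p = 0.622). KO replicate 3 was again the exception, lying above all WT lesions while the other KO lesions lay below them.

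Proteases of the binding proteins and their inhibitors were neither all lower nor all higher in KO lesions. Adam28, a metalloproteinase that cuts IGFBP3, had 17.4, 31.9 and 23.0 CPM in the WT lesions and 12.1, 14.0 and 13.0 CPM in the KO lesions. All WT lesions lay above the narrow range of the KO lesions. The log2 fold change was -0.89 (SE 0.24, unadjusted edgeR p of 0.0108, adjusted p = 0.321), and it was -1.31 against WT replicate 2 alone and -0.63 without it. WT replicate 2, the highest in Adam28, was also the lesion with the highest neutrophil sum (9862 CPM), whose part was not tested. Pappa, the protease of IGFBP4, was 6.19, 6.39 and 3.74 CPM in the WT lesions and 2.65, 2.38 and 5.29 CPM in the KO lesions (log2 fold change -0.66, edgeR adjusted p = 0.447). KO replicate 3 lay among the WT lesions.

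Stc2, a stanniocalcin that inhibits PAPP-A, had 104, 80.6 and 97.2 CPM in the WT lesions and 229, 263 and 78.5 CPM in the KO lesions. KO replicates 1 and 2 were far above the WT lesions, and KO replicate 3 was the lowest of all. Fitted in edgeR, the log2 fold change was 1.02 (SE 0.44, edgeR adjusted p = 0.350). The sum of 8 epithelial markers was also highest in KO replicates 1 and 2 (37015 and 28537 CPM). It was 17366 CPM in KO replicate 3 and 11522 to 20891 CPM in WT lesions. Most of that sum was Ltf, with 33570 and 25488 CPM in KO replicates 1 and 2. Of the 8 markers, 7 had a log2 fold change above 0 and 1 below, and 0 had an unadjusted edgeR p under 0.05. The part of these markers in the levels of Stc2 and Stat5a was not tested. Stc1, the relative of Stc2, reached 27.6 CPM in KO replicate 2 and was between 2.14 and 5.77 CPM elsewhere. Htra1, a secreted serine protease that cuts IGFBP5, had 152, 113 and 182 CPM in the WT lesions and 231, 172 and 259 CPM in the KO lesions (log2 fold change 0.57, SE 0.24, edgeR adjusted p = 0.344). Only WT replicate 3 and KO replicate 2 crossed.

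**Figure D5:**
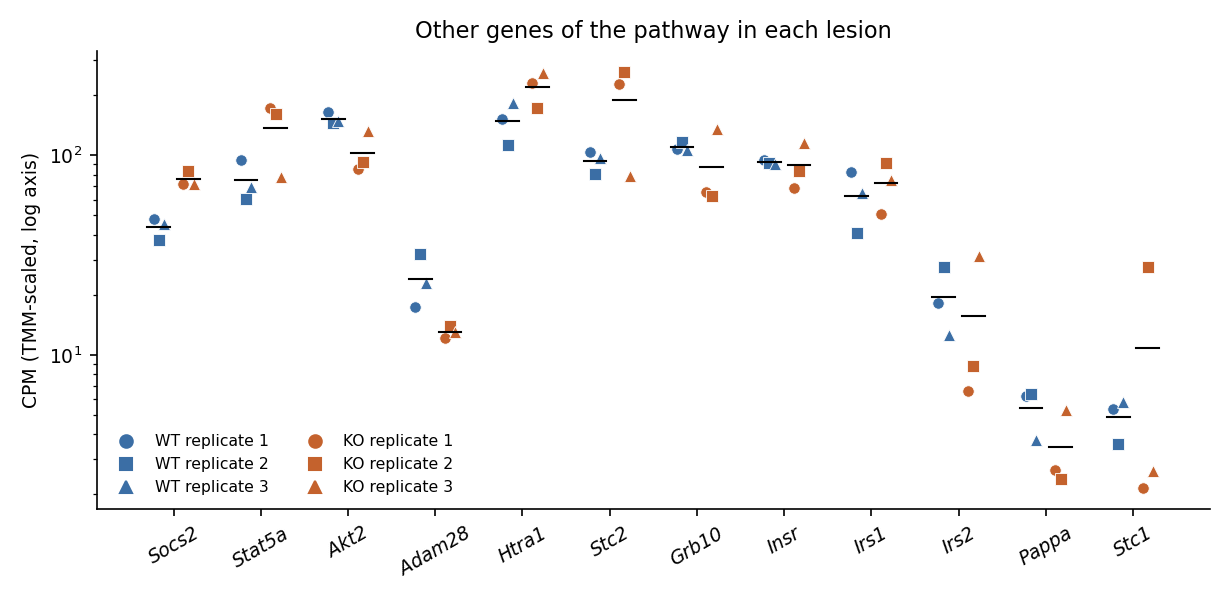
CPM (log axis) of 12 other genes of the pathway in each lesion, with WT lesions left and KO lesions right of each gene and black bars for the group means. Socs2 is separated with KO above WT, Akt2 and Adam28 with WT above KO, and for Stc2, Stat5a, Grb10, Irs2 and Pappa KO replicate 3 (triangles) lies away from the other KO lesions.

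Of the 6 pathway genes too low to test, Igfbp1, the binding protein of decidual stroma and liver, had 0 counts in all 6 lesions. Ins2, which encodes insulin, had 314 counts in WT replicate 3, the lesion with pancreatic transcripts, 2 counts in KO replicate 2 and 0 in the other lesions. Insrr, Irs4, Igf2bp1 and Igf2bp3 stayed at or below 0.271 CPM.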

How the data were processed

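RNA was measured in 3 WT and 3 KO lesions, with a stranded kit, and each lesion is 1 library grouped by its genotype label. The deposited values are counts per gene that the authors did not normalize. The study's methods name trimming and mapping to GRCm38 on Galaxy, whereas the submitters' processing notes name Trimmomatic, featureCounts, DESeq2 and GRCm39, so no coordinates of gene models are printed, and those of promoter windows are RefSeq coordinates on GRCm38.p6. Of 56884 identifiers, 51948 matched GENCODE M21 after removal of the version and 35 with it, and exon lengths and chromosomes were taken from there. Counts of 1 to 10 were even for 89.7% to 91.3% of genes in each library.

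Counts were fitted across all genes kept by filterByExpr in edgeR 4.0.16 (R 4.3.3), with TMM scaling, a quasi-likelihood test and genotype as the only term. The call rules were an adjusted p under 0.05, an unadjusted p under 0.05, and the latter with a log2 fold change beyond 1 in size. Permutation tests over lesions were exact and two-sided. Log2 CPM for correlations used a prior count of 2. The common biological coefficient of variation was 44.2%. Promoter windows came from RefSeq tables on GRCm38.p6, where all 10 members matched with 14 windows. The steps were tested on simulated data. According to the methods of the study, a single fragment from a donor went into a recipient, with 3 donors per genotype sequenced. Nothing further says how far replicates shared animals or handling, so p-values measure the spread between these lesions.

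Named genes are all members, Dnmt3a, pathway genes with an unadjusted p under 0.05, 9 pathway genes named whatever their values (H19, Grb10, Insr, Irs1, Irs2, Pappa, Htra1, Stc1 and Stc2), and the 5 genes most like the member with the smallest p. Akt1, Foxo4, Stat5b, pathway genes too low to test and marker genes are named outside this rule, after their values were seen. The members, lists and tests were chosen with earlier results of these data known. Alternatives were DESeq2's size factors, upper quartile scaling, no filter beyond 1 count, 10 or more counts required in each library, the Wald test of DESeq2 1.42.0, limma 3.58.1 with voom, a replicate block, each lesion left out, and shares without length correction. WT replicate 2 as the only control and halved counts were added after seeing the data.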

Additional observations from a re-analysis of the deposited data

How the results depend on the processing

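Igf2, Igf2r, Igfbp2, Igfbp3, Igfbp4, Igfbp6, Igfbp7 and Dnmt3a kept a log2 fold change below 0 under every alternative that gave a value. With single lesions left out, Igf1 ranged from -0.14 to 0.13, Igf1r from -0.27 to 0.02 and Igfbp5 from -0.89 to 0.30. Igf1 was 0.09 under upper quartile scaling, 0.00 without WT replicate 3, 0.13 without KO replicate 1 and 0.01 with WT replicate 2 as the only control. Igf1r was 0.01 without WT replicate 1 and 0.02 without KO replicate 3, and Igfbp5 was 0.30 without WT replicate 1 and 0.66 with WT replicate 2 as the only control. Dnmt3a was -0.58 by DESeq2 (adjusted p = 0.0447). Members lower at an adjusted p under 0.05 numbered 0 in edgeR and 1 by DESeq2. Members lower at an unadjusted p under 0.05 numbered 3 in edgeR, 5 by voom, 0 with WT replicate 2 as the only control and 1 to 5 with single lesions left out. With the added limit on the fold they numbered 2, then 1 under upper quartile scaling, 1 with at least 10 counts in every library, 1 with halved counts, 0 with WT replicate 2 as the only control and 1 to 2 with single lesions left out. Igf2 had no value with at least 10 counts in every library or with halved counts, since it was filtered out. Of the pathway genes, 0 were lower at an adjusted p under 0.05 in edgeR, 1 by DESeq2 and 0 to 2 with single lesions left out, and 0 were higher against 1 by DESeq2. At an unadjusted p under 0.05, 3 were lower, 10 by voom and 2 to 9 with single lesions left out, and 2 were higher, 4 under upper quartile scaling, 3 by voom, DESeq2, the block, no filter and WT replicate 2 as the only control, and 1 to 3 with single lesions left out. With the limit on the fold, 1 was lower, 2 without the filter, 3 by voom, 3 with WT replicate 2 as the only control and 1 to 4 with single lesions left out, and 0 were higher, 1 each under upper quartile scaling, no filter, DESeq2 and voom, and 0 to 2 with single lesions left out. Without length correction the shares of the binding-protein sum in WT and KO were 5.81% and 4.13% for Igfbp3, 20.6% and 18.0% for Igfbp4, 26.7% and 31.3% for Igfbp5, 10.8% and 10.8% for Igfbp6 and 33.8% and 33.9% for Igfbp7, with 1.90% for Igfbp2 in KO. Apart from the filters and length correction, the cause of these shifts was not tested. Replicate numbers did not pair the lesions (same-number correlations of deviations 0.032, -0.152 and -0.201). With the replicate block 2 members were lower at an unadjusted p under 0.05. The number was also 2 under upper quartile scaling, with at least 10 counts in every library and with halved counts. Depth limited Igf2, with 2 to 14 counts in 4 of 6 lesions. Fits with WT replicate 2 as the only control took their spread from the KO lesions alone.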
